A study of Homo sapiens with 15 samples.

Results

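SKOV3ip1 ovarian cancer cells grown without folate were compared with SKOV3ip1 cells grown with folate and exposed to an antibody that the labels call 003. The 2 sets of arrays were taken by their titles, 3 of the folate-free culture and 3 of the 003 culture, which makes 6 of the 15 arrays of the study. SKOV3ip1 is an established epithelial ovarian cancer line, a derivative of SKOV3. Each culture gave 1 RNA extract, and 3 aliquots of each extract were hybridised to Affymetrix U133 Plus 2.0 arrays, so the p-values here measure the spread between aliquots and compare extracts, with no replicate culture behind any of them. The folate-free cells (no MTF) spent 7 days in medium lacking folate. The 003 cells (5-MTF+003) spent 7 days with folic acid at a physiological level, written as 2 to 10 nM, and the last 24 hours with the 003 antibody. Of the remaining extracts, MTF+MORAb0003 and 5-MTF+004 had the same folic acid for 7 days and, for 24 hours, the MORAb003 antibody or the control antibody 004. The 5-MTF extract had the folic acid alone and is the culture against which the others are set. The labels do not say what MTF stands for, or whether 003 and MORAb003 are one antibody; they were kept apart here.

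Folate carries the one-carbon units that cells need to make purines and thymidylate and to regenerate methionine. Folate receptor alpha, the product of FOLR1, binds folate at the cell surface and carries it inside by endocytosis, and most epithelial ovarian cancers express it strongly. MORAb-003 is an antibody to that receptor. Setting the folate-free extract beside the 003 extract asks which transcripts separate a lack of folate from an antibody given in its presence, and which they have in common against folate alone.

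Values are log2 signals, with the brightest probe set standing for each gene, and levels were not compared between genes. A gene was called where its difference was at least 1.5-fold with an adjusted p under 0.05 (limma, Benjamini-Hochberg over 14368 genes). All 11 epithelial ovarian cancer markers lay at or above the median probe signal in all 6 arrays. Of 11 fibroblast and endothelial markers 6 also lay at or above that median in all 6 arrays, while COL3A1, LUM and KDR lay below it. The list of 11 summed to 1837 to 2083 in no MTF and 1999 to 2261 in 5-MTF+003 on the linear scale. Of 8 leukocyte markers 3, CD3E, CD3D and ITGAM, lay at or above that median in all 6 arrays. MS4A1, CD14, LYZ and NKG7 lay below it in all 6. The list of 8 summed to 702 to 751 in no MTF and 726 to 771 in 5-MTF+003. Replicate 1 of 5-MTF+004 stood apart from its own extract, with a correlation down to 0.948 against the other two arrays. It enters the error that all comparisons share, so the main counts are also given without it.

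The folate-free and the 003 extracts lay close together. Over all genes the median absolute difference between them was 0.110 on the log2 scale, the smallest of the 10 pairs of extracts with all 15 arrays. Without replicate 1 of 5-MTF+004 it was 0.111, and 5-MTF+004 minus 5-MTF was then smaller at 0.07. The same measure was 0.144 for no MTF minus 5-MTF and 0.175 for 5-MTF+003 minus 5-MTF. Correlations between single no MTF and 5-MTF+003 arrays ran from 0.988 to 0.995, against 0.995 to 0.997 within no MTF and 0.993 to 0.995 within 5-MTF+003. FOLR1 read 13.67, 13.87 and 13.85 in no MTF, against 13.74, 13.83 and 13.82 in 5-MTF+003. These ranges overlapped, and the difference was 0.00 ± 0.13 (SE; adjusted p = 0.998, limma). The second FOLR1 probe set differed by 0.29.

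**Figure D1:**
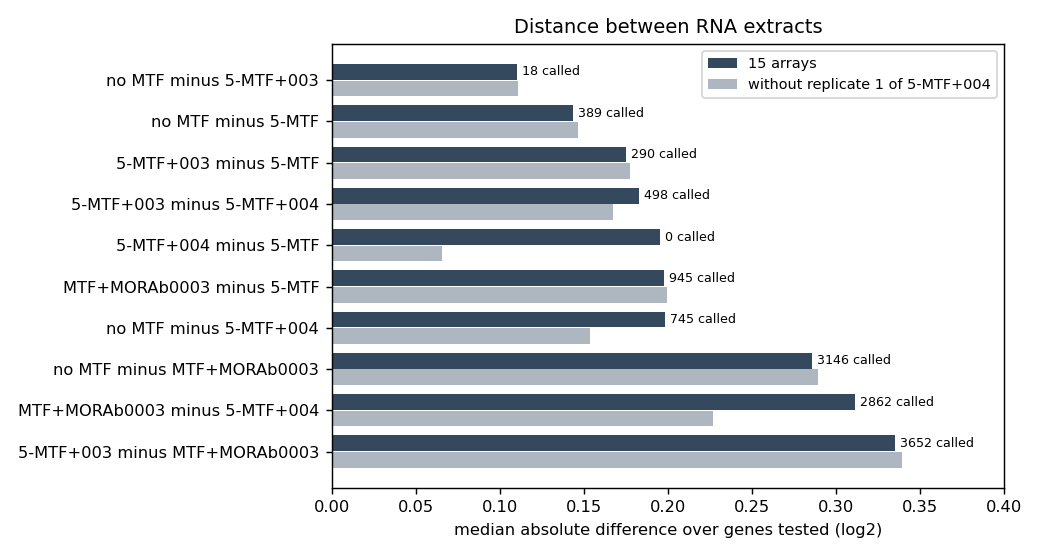
Median absolute log2 difference over the genes tested for each of the 10 pairs of extracts, with 15 arrays (dark bars) and without replicate 1 of 5-MTF+004 (light bars); the number of genes called with 15 arrays stands beside each dark bar. The folate-free and 003 extracts have the shortest dark bar, at 0.110, and 18 called genes.

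RNA integrity can be read from control probe sets placed at both ends of a transcript. The 3′ minus 5′ signal of actin was 4.09 ± 0.16 in no MTF and 4.02 ± 0.10 in 5-MTF+003 (SD, n = 3 aliquots each), and the arrays of the extracts overlapped. It was 2.42 ± 0.13 in MTF+MORAb0003, 3.46 ± 0.31 in 5-MTF+004 and 3.24 ± 0.13 in 5-MTF. The folate-free and 003 extracts thus differed by 0.07 for actin and by -0.12 for GAPDH, while each was wider than 5-MTF, by 0.85 and 0.78 for actin and by 0.40 and 0.52 for GAPDH.

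**Figure D2:**
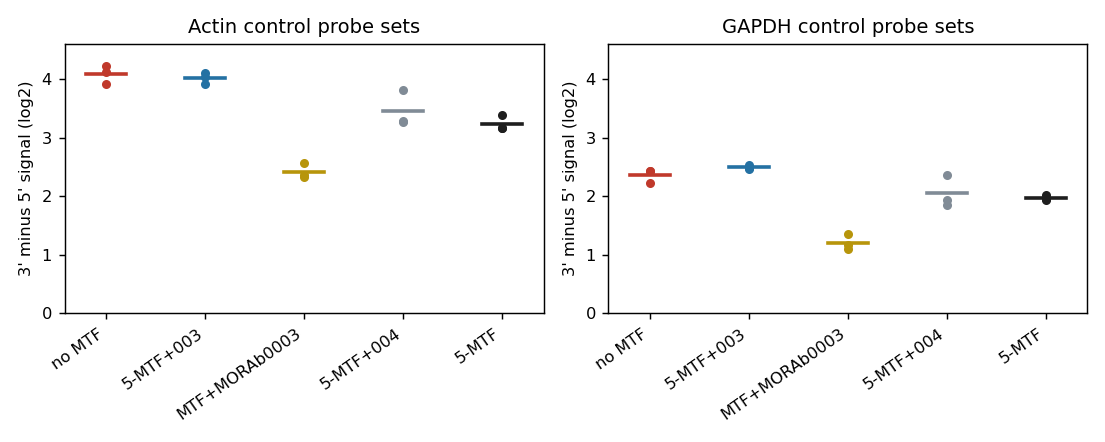
The 3′ minus 5′ log2 signal of the actin (left) and GAPDH (right) control probe sets in each array (points) with the mean of each extract (lines). For actin, the no MTF and 5-MTF+003 arrays lie between 3.91 and 4.22, above all 5-MTF arrays.

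Between the folate-free and the 003 extracts 18 genes were called, 0.125% of those tested, 15 higher in no MTF (0.104%) and 3 lower (0.0209%). At an unadjusted p under 0.05 there were 988. For each of the 18 the arrays of the extracts did not overlap, as was so for 26% of all genes tested. In bulk RNA, a change in the share of cells and a change in RNA per cell cannot be told apart. Without replicate 1 of 5-MTF+004 the error was smaller and 137 genes were called, 0.968% of 14146, with 127 higher (0.898%) and 10 lower (0.0707%), and all 18 were among them. Leaving out a single array of either extract left between 1 and 5 calls: 1, 5 and 2 without replicate 1, 2 or 3 of no MTF, and 1, 2 and 5 without replicate 1, 2 or 3 of 5-MTF+003. With replicate 1 of 5-MTF+004 also left out, these same omissions gave 103 to 258 calls and kept 17 or 18 of the 18. The labels place the arrays on 2 days, with replicates 1 and 2 on the first and replicate 3 on the second, and all 18 kept their sign within each day, with differences of at least 0.60 on the first and 0.63 on the second.

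A pair of mitochondrially encoded transcripts, ATP6 and ND2, was lower in the folate-free extract. Mitochondrial DNA encodes core subunits of the respiratory chain and of ATP synthase, and its transcripts are read by their own polymerase. ATP6, a subunit of ATP synthase, read 13.18, 13.15 and 13.30 in no MTF, against 14.05, 13.97 and 13.98 in 5-MTF+003. It fell by 0.79 ± 0.10 (SE; adjusted p = 0.00696, limma), and 14.19, 14.19 and 14.24 in 5-MTF lay above both. A second ATP6 probe set gave a difference of -0.78.

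ND2, a subunit of respiratory complex I, read 12.82, 12.75 and 12.67 in no MTF, against 13.48, 13.42 and 13.44 in 5-MTF+003. It fell by 0.70 ± 0.10 (adjusted p = 0.0134, limma). In 5-MTF it read 13.89, 13.95 and 13.83, so the 003 extract lay between no MTF and 5-MTF. Against 5-MTF, ND2 differed by -1.14 in no MTF and by -0.44 in 5-MTF+003 (adjusted p = 0.000222 and 0.0305, limma). ATP6 and ND2 were lower in no MTF than in each of the other 4 extracts, by adjusted p under 0.05.

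Of the 7 mitochondrially encoded transcripts tested 2 were called lower, beside 0.0209% of all genes tested, and none higher. The median difference of the 7 was -0.49, beside -0.02 over all genes tested. The other 5 had differences of -0.69 (ND6), -0.49 (COX2), -0.38 (COX3), -0.27 (ND4) and -0.21 (COX1), and did not pass; all 7 were below an unadjusted p of 0.05, as were 988 of the 14368 genes tested. ND6, which is encoded on the opposite strand, passed without replicate 1 of 5-MTF+004 (adjusted p = 0.000231, limma). Of 29 nuclear genes of respiratory complexes I to III none was called and 0 were below an unadjusted p of 0.05 (limma), with a median difference of -0.04. Nuclear copies of mitochondrial DNA resemble these transcripts, and probe sets were not checked for them here. Against 5-MTF, 0 of the 7 mitochondrially encoded differences were above 0 in no MTF, with a median of -0.39. In 5-MTF+003 the median was -0.12 and 2 were above 0, ND6 by 0.67 and COX3 by 0.10. In no MTF these 2 differed from 5-MTF by -0.03 and -0.28.

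ASNS and DDIT4, which belong to the amino acid response, were higher without folate than with 003. In that response the transcription factor ATF4 raises genes of amino acid synthesis and transport when amino acids are scarce. ASNS, which makes asparagine, read 10.56, 10.78 and 10.87 in no MTF, against 9.45, 9.42 and 9.76 in 5-MTF+003. The difference was 1.19 ± 0.20 (adjusted p = 0.0397, limma). The 5-MTF arrays at 10.94, 10.73 and 10.81 lay with the folate-free ones, and ASNS was lower in 5-MTF+003 than in each of the other 4 extracts.

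DDIT4, an inhibitor of mTOR signalling, showed the same order. It read 12.36, 12.36 and 12.35 in no MTF, against 11.56, 11.32 and 11.57 in 5-MTF+003, a difference of 0.87 ± 0.14 (adjusted p = 0.0200, limma). The 5-MTF arrays read 12.43, 12.42 and 12.50. Of the 29 genes of the amino acid list, these 2 were called higher in no MTF, beside 0.104% of all genes tested, and none lower. The median of the list was 0.22, and 23 of 29 differences were above 0, beside 6640 of 14368 genes tested. At an unadjusted p under 0.05 (limma) 8 were higher and 2 lower, beside 988 of 14368 genes in either direction. Among the others PHGDH, the first enzyme of serine synthesis, differed by 0.56, ATF4 itself by 0.37 and the serine enzyme PSAT1 by -0.02, and none of these passed. Against 5-MTF the list median was 0.00 in no MTF, with 15 of 29 above 0, and -0.17 in 5-MTF+003, with 7 of 29 above 0. In no MTF 1 was called higher and 0 lower, beside 0.905% higher over all genes tested. In 5-MTF+003 0 were called higher and 4 lower, beside 1.59% lower.

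PCK2, the mitochondrial enzyme that makes phosphoenolpyruvate, differed on both sides of folate alone. It read 9.64, 9.79 and 9.77 in no MTF, against 8.91, 8.91 and 8.90 in 5-MTF+003. The difference was 0.83 ± 0.09 (adjusted p = 0.00274, limma). In 5-MTF it read 9.39, 9.32 and 9.28. PCK2 was above that level in no MTF by 0.40 (adjusted p = 0.0227, limma). In 5-MTF+003 it was below that level by a difference of -0.43 (adjusted p = 0.0235, limma). The arrays of the control antibody, 5-MTF+004, with a mean of 9.12, also all lay below every 5-MTF array. For 5-MTF+003 minus 5-MTF+004 the difference was -0.21 (adjusted p = 0.170, limma). Without replicate 1 of 5-MTF+004 it was -0.27 (adjusted p = 0.0111, limma), below 1.5-fold.

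The promoter of ASNS is printed because it carries the DNA word that ATF4 and its partners bind in amino acid response genes. The 250 bases before its start are given from RefSeq (GRCh38.p14, chr7:97872409-97872658, minus strand), 5′ to 3′, with the match to TGATGNAA in capitals, searched on both strands.
ASNS: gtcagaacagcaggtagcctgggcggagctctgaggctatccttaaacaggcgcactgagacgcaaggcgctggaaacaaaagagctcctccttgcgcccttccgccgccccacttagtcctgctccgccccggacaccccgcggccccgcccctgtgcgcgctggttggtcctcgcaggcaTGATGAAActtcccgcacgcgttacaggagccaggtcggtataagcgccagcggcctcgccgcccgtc
The single match begins 68 bases before the start. Of 35116 promoters of this length 3.14% held the word at least once, and so did 6 of the 26 amino acid genes that have a promoter there. Where a gene had several promoters, the one with the most matches was taken. The 3.14% is over single promoters, so these shares are not like for like. DDIT4, ATF4, PHGDH and PSAT1 held 0 matches. A match is a description of the letters and not of binding.

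MT2A was higher in the folate-free extract. It encodes a metallothionein, one of the small proteins that bind zinc and copper and rise when free zinc rises. MT2A read 12.39, 12.39 and 12.48 in no MTF, against 11.66, 11.62 and 11.49 in 5-MTF+003. The difference was 0.83 ± 0.14 (adjusted p = 0.0338, limma). The 5-MTF arrays at 12.11, 12.28 and 12.21 lay between, nearer to no MTF, and the mean of MTF+MORAb0003, at 11.61, lay with 5-MTF+003.

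All 8 genes of the metallothionein and zinc list had differences above 0, beside 6640 of 14368 genes tested, with a median of 0.57. Of the 8, 1 was called, beside 0.104% higher over all genes tested. Below an unadjusted p of 0.05 (limma) were 6, beside 988 of 14368 genes. MT1F differed by 0.81, MT1X by 0.63 and MT1H by 0.61. These 3 passed only without replicate 1 of 5-MTF+004, where 0.898% of all genes tested were called higher. MTF1, the zinc-sensing transcription factor that drives metallothioneins and has no stated link to the MTF of the culture labels, differed by 0.00. The metallothionein transcripts are close copies of each other, and probe sets of one may read another, so the genes are not independent. Against 5-MTF the list median was 0.15 in no MTF, with 7 of 8 above 0 and 0 called. In 5-MTF+003 it was -0.46, with 1 of 8 above 0, 0 called higher and 2 lower, beside 1.59% lower over all genes tested.

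Zinc response is read at promoters through short metal response elements, and the promoters of 3 of these genes show how many such words they hold. Capitals mark matches to TGCACNC or TGCGCNC on either strand in the 250 bases before each start (RefSeq, GRCh38.p14, plus strand, chr16:56608334-56608583 for MT2A, chr16:56682220-56682469 for MT1X and chr16:56669564-56669813 for MT1H), 5′ to 3′.
MT2A: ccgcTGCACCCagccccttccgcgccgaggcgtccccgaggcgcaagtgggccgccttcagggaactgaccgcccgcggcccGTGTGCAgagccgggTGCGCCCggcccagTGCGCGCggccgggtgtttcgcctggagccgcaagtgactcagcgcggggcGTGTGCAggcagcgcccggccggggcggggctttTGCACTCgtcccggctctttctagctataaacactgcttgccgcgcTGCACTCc
MT1X: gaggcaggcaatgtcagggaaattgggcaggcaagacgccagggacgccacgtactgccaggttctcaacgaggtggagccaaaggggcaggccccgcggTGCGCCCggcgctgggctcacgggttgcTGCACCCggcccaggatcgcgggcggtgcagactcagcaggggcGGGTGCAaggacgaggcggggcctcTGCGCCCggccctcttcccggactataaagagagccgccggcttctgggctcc
MT1H: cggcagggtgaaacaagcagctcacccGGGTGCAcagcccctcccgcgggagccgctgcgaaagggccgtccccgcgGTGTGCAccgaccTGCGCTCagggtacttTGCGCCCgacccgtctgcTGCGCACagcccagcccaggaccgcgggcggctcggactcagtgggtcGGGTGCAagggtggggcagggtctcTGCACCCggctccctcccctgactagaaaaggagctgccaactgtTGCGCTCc
MT2A held 7 matches, MT1X 4 and MT1H 8. Of all 35116 promoters 24.8% held at least 1 match, 0.370% held at least 4 and 0.0513% at least 6. Where a metallothionein gene had several promoters, the one with the most matches was taken. The shares are over single promoters, so they are not like for like with these counts. RefSeq promoters were at hand for 3 of the 6 metallothionein genes tested.

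The matrix proteases MMP1 and MMP10, both secreted, were higher without folate than with 003. MMP1, a collagenase, read 6.51, 6.77 and 6.92 in no MTF, against 4.90, 5.42 and 5.73 in 5-MTF+003. The difference was 1.38 ± 0.23 (adjusted p = 0.0375, limma). MMP1 reached the level required for testing, 6.60, only in no MTF and MTF+MORAb0003, and all 003 arrays lay below the median signal of all probe sets, so the size of its difference is uncertain. The 5-MTF arrays at 6.09, 6.17 and 5.97 lay between, and MMP1 passed against 5-MTF in neither extract (0.66 and -0.72).

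MMP10, a stromelysin, read 6.98, 7.13 and 7.29 in no MTF, against 5.97, 6.07 and 6.26 in 5-MTF+003. The difference was 1.03 ± 0.15 (adjusted p = 0.0140, limma), and the 5-MTF arrays at 7.15, 6.86 and 6.78 lay with no MTF. The mean of MMP10 in 5-MTF+003, 6.10, was also below 6.60. Of the 20 mesenchymal and matrix genes tested MMP1 alone was called, beside 0.104% higher over all genes tested. Without replicate 1 of 5-MTF+004 2 were called higher, beside 0.898%. MMP10 is not on that list.

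Genes that separated the 003 extract from all others included 3 more. IRF8, a transcription factor best known from blood cells, read 9.01, 9.09 and 9.08 in no MTF, against 8.18, 8.03 and 8.31 in 5-MTF+003 (difference 0.89 ± 0.15, adjusted p = 0.0312, limma). CHST2, a sulfotransferase of glycans, read 8.19, 8.15 and 8.39 in no MTF, against 7.50, 7.32 and 7.42 in 5-MTF+003 (0.83 ± 0.12, adjusted p = 0.0134, limma). In both the 003 arrays lay below every array of no MTF.

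PTGDS, a prostaglandin D synthase, ran the other way. It read 10.64, 10.52 and 10.54 in no MTF, against 11.30, 11.23 and 11.16 in 5-MTF+003, and fell by 0.67 ± 0.10 (adjusted p = 0.0165, limma). Its 5-MTF arrays, 9.85, 10.13 and 10.10, were below both extracts, by a mean difference of 0.54 in no MTF and 1.21 in 5-MTF+003. The other 2 PTGDS probe sets gave -0.63 and -0.50. With ASNS, DDIT4 and MMP10 these make 6 genes that differed in 5-MTF+003 from each of the other 4 extracts.

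The 8 genes that differed in no MTF from each of the other 4 extracts were ATP6, ND2, PCK2 and 5 others. IGFBP6, which binds insulin-like growth factors, read 8.13, 7.93 and 8.03 in no MTF, against 7.43, 7.43 and 7.38 in 5-MTF+003 (0.62 ± 0.11, adjusted p = 0.0491, limma). GPER1, a membrane estrogen receptor, read 9.10, 9.16 and 9.21 in no MTF, against 8.27, 8.32 and 8.45 in 5-MTF+003 (0.81 ± 0.10, adjusted p = 0.00736, limma). The no MTF arrays of both lay above every 5-MTF+003 array and every 5-MTF array.

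MIB2, a ubiquitin ligase of Notch ligands, read 8.94, 8.95 and 8.98 in no MTF, against 8.19, 8.02 and 8.30 in 5-MTF+003 (0.78 ± 0.14, adjusted p = 0.0491, limma). Its second probe set differed by 0.05, so the MIB2 call rests on 1 probe set. AGAP4 differed by 0.81 ± 0.13 (adjusted p = 0.0187, limma) and ZDHHC8BP by 0.71 ± 0.10 (adjusted p = 0.0134, limma). Both belong to families of near-identical copies, AGAP4 among the AGAP genes and ZDHHC8BP as a pseudogene of ZDHHC8, and their probe sets may read more than one copy.

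The last 2 of the 18 were MAL, a protein of apical membrane sorting, and SERINC2, a multipass membrane protein. MAL averaged 12.81 ± 0.07 in no MTF and 11.97 ± 0.03 in 5-MTF+003 (SD, n = 3 aliquots each; difference 0.84, adjusted p = 0.0140, limma), and its mean in MTF+MORAb0003 was 11.77. SERINC2 read 9.11, 9.06 and 9.01 in no MTF, against 8.30, 8.54 and 8.34 in 5-MTF+003 (0.66 ± 0.10, adjusted p = 0.0187, limma). In 5-MTF MAL read 12.67, 12.69 and 12.75, beside the folate-free arrays. Some of the 18 calls depended on taking the brightest probe set. When each gene was averaged over its probe sets, SERINC2 differed by 0.06 (adjusted p = 0.960, limma), MIB2 by 0.11 and ASNS by 0.56 (adjusted p = 0.105, limma), and GPER1 and CHST2 by 0.47 each, below 1.5-fold; 13 of the 18 stayed called.

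Against 5-MTF, by adjusted p alone, 6 of the 18 differed only in no MTF, 8 only in 5-MTF+003, 2 in both the same way, 1 in both in opposite ways and 1 in neither. Of the 137 called without replicate 1 of 5-MTF+004 these numbers were 36, 62, 19, 17 and 3.

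**Figure D3:**
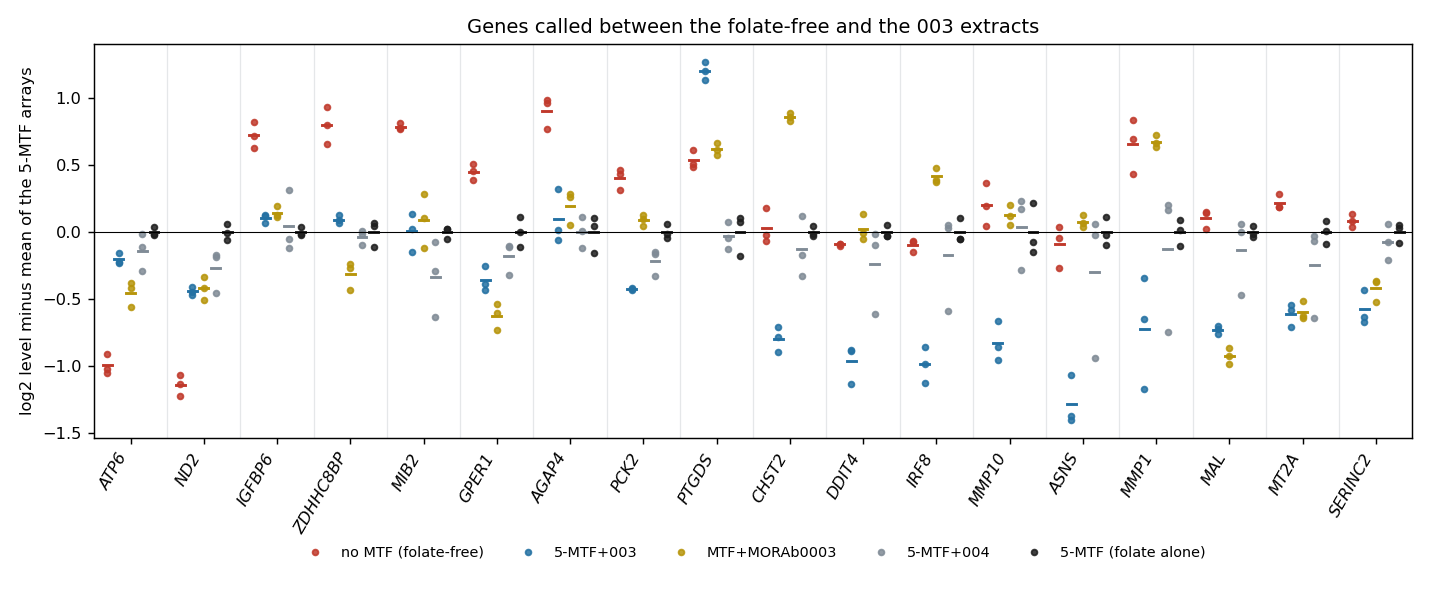
The 18 called genes, each array (points) and extract mean (lines) as log2 level minus the mean of the 5-MTF arrays, with the 5 extracts from left to right as no MTF, 5-MTF+003, MTF+MORAb0003, 5-MTF+004 and 5-MTF. The first 8 genes differ in no MTF from all other extracts (ATP6 and ND2 below, the others above), and the next 6, from PTGDS to ASNS, differ in 5-MTF+003.

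With only 3 genes called lower, 5 more are given by their values, and none passed with 15 arrays. DEFB1, an epithelial defensin, read 10.27, 9.72 and 9.90 in no MTF, against 11.17, 10.62 and 10.78 in 5-MTF+003, a difference of -0.89. TXNIP, which binds thioredoxin and restrains glucose uptake, read 9.41, 9.43 and 9.23 in no MTF, against 10.13, 10.02 and 10.12 in 5-MTF+003, a difference of -0.73. ND6 (-0.69), RASL10B (-0.64) and the zinc importer SLC39A10 (-0.62) complete the set. The 5 were chosen by the size of the difference among genes whose arrays did not overlap between the extracts. Their lack of overlap was thus fixed by the choice. All 5 passed without replicate 1 of 5-MTF+004.

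Of 30 immediate early and ERK feedback genes none was called with 15 arrays. Without replicate 1 of 5-MTF+004 4 were called higher, beside 0.898% of all genes tested, and none lower. DUSP6, a phosphatase that inactivates ERK, read 11.53, 11.55 and 11.71 in no MTF, against 10.52, 10.48 and 10.85 in 5-MTF+003 (difference 0.98; adjusted p = 0.149 with 15 arrays and 1.35e-05 without that array, limma). PHLDA1 (1.03), SPRY4 (0.72) and SPRY2 (0.61) likewise passed only there. The median difference of the list was 0.06. At an unadjusted p under 0.05 (limma, 15 arrays) 7 were higher and 2 lower, beside 988 of 14368 genes in either direction. FOS, an immediate early gene, differed by 0.47 and EGR1 by -0.22.

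No folate gene was called between the extracts. Of 9 genes of folate uptake and retention and of 12 of the one-carbon cycle none was called, with or without replicate 1 of 5-MTF+004, and 0 were below an unadjusted p of 0.05 (limma). The medians were 0.00 and -0.02. SLC19A1, the reduced folate carrier, differed by -0.07, TYMS, which makes thymidylate, by -0.14 and MTHFD2, a mitochondrial folate enzyme, by 0.28. None was called among 15 genes of purine and thymidylate synthesis, 35 of DNA replication, 35 of mitosis, 18 of cholesterol synthesis or 49 cytosolic ribosomal proteins, where 0, 0, 3, 1 and 1 were below an unadjusted p of 0.05 (limma) and medians ran from -0.10 to -0.02. Of 17 methionine cycle genes none was called with 15 arrays; CTH, which makes cysteine from cystathionine, differed by 0.88 and passed without replicate 1 of 5-MTF+004. Of 20 NF-kB feedback and cytokine genes none was called and the median was -0.18. Of their differences 3 were above 0, beside 6640 of 14368 genes tested. At an unadjusted p under 0.05 (limma) 1 was higher and 6 lower, beside 988 of 14368 genes in either direction.

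**Figure D4:**
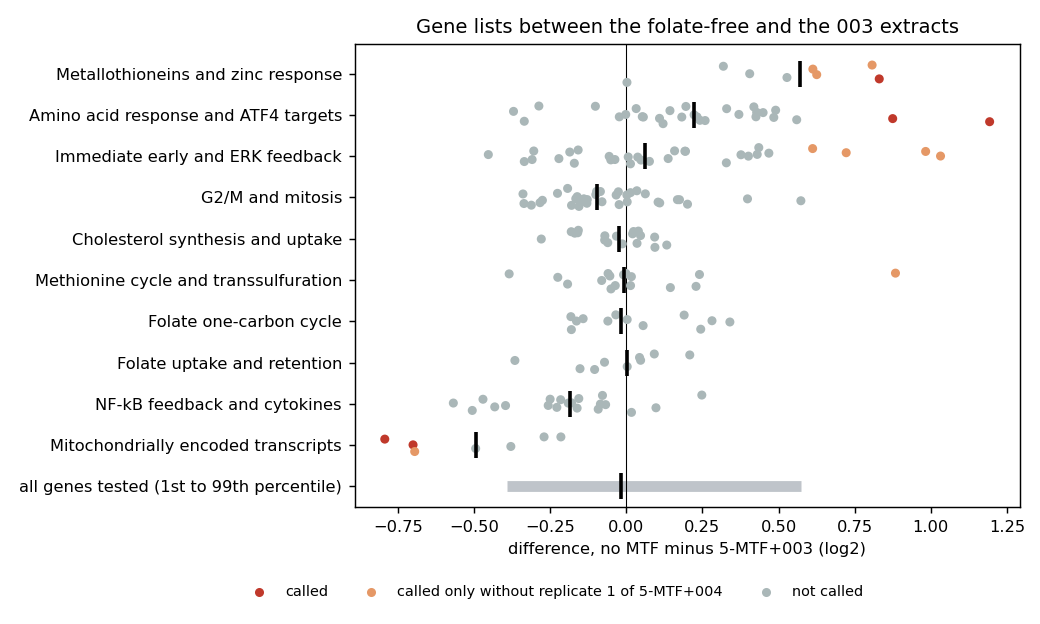
Difference between the folate-free and the 003 extracts (no MTF minus 5-MTF+003, log2) for each tested member of 10 gene lists (points) with the list median (black tick); the grey bar spans percentiles 1 to 99 of all genes tested, -0.39 to 0.58. The mitochondrially encoded median is -0.49 and the metallothionein median 0.57, beside -0.02 over all genes.

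Both extracts were also set against folate alone. Of the genes tested 389 (2.71%) were called in no MTF minus 5-MTF, 130 higher (0.905%) and 259 lower (1.8%). In 5-MTF+003 minus 5-MTF 290 (2.02%) were called, 62 higher (0.432%) and 228 lower (1.59%). Both comparisons use the same 5-MTF arrays. Called the same way in both were 149 genes, 29 higher (0.202% of all tested) and 120 lower (0.835%), 38.3% of the 389 and 51.4% of the 290, and 0 were called in opposite ways. None of the 149 was called between no MTF and 5-MTF+003, where their median absolute difference was 0.119 and the largest 0.544. Without replicate 1 of 5-MTF+004 the counts were 921 (6.51%), 1032 (7.3%) and 518 shared, with 1 gene called in opposite ways, and all 149 were among the 518. The 389 became 91 to 249 without 1 array of no MTF or of 5-MTF, and the 290 became 1 to 187 without 1 array of 5-MTF+003 or of 5-MTF or without replicate 2 of no MTF. Leaving out 1 array of no MTF, 5-MTF+003 or 5-MTF gave 0 to 81 shared genes, and 0 without replicate 2 of 5-MTF+003, replicate 1 of 5-MTF or replicate 3 of 5-MTF. Without replicate 1 or 3 of 5-MTF 12 genes were called between no MTF and 5-MTF+003.

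The shared lower genes are named by the smaller of their 2 differences. NRP1, a co-receptor for semaphorins and vascular endothelial growth factor, read 7.03, 7.21 and 7.12 in no MTF and 6.97, 7.06 and 7.31 in 5-MTF+003, against 9.01, 8.66 and 8.57 in 5-MTF. It fell by 1.63 ± 0.24 in no MTF (adjusted p = 0.00331, limma) and by 1.64 ± 0.24 in 5-MTF+003 (adjusted p = 0.00795, limma). Its second probe set gave -0.27 and -0.26. SEMA3C, a secreted semaphorin, differed by -1.27 and -1.47 and FZD6, a Wnt receptor, by -1.45 and -1.70, in no MTF and 5-MTF+003.

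CNN3, a calponin of the actin cytoskeleton, differed by -1.41 in no MTF and -1.20 in 5-MTF+003, and the protease ADAM9 by -1.21 and -1.07. SERINC1, STARD4, POLI, TMEM135, SUCLG2, SPOPL and PRRC1 differed by -1.26 to -1.06 in no MTF and by -1.18 to -1.05 in 5-MTF+003. One other probe set of PRRC1 ran the other way, at 0.56 and 0.24.

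Of 18 genes of cholesterol synthesis and uptake 5 were lower in both extracts and none higher, beside 0.835% lower in both over all genes tested. Without replicate 1 of 5-MTF+004 it was 7 of 18, beside 3.36%. STARD4, which carries sterols, read 7.87, 7.83 and 7.85 in no MTF and 7.97, 7.84 and 7.95 in 5-MTF+003, against 9.06, 9.17 and 8.90 in 5-MTF. SC5D differed by -1.15 and -0.99, SQLE by -0.91 and -0.63, IDI1 by -0.83 and -0.67 and INSIG1 by -0.68 and -0.72. The desaturase SCD differed by -1.50 and -0.95.

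Of 32 hypoxia and glycolysis genes 4 were lower in both and none higher, and 7 were lower without replicate 1 of 5-MTF+004, beside the same 0.835% and 3.36%. BNIP3, a mitochondrial mitophagy protein, differed by -0.85 in no MTF and -1.07 in 5-MTF+003, ALDOC by -0.73 and -1.08, P4HA1 by -0.68 and -0.97 and ERO1A by -0.87 and -0.66. Of 9 folate uptake and retention, 12 one-carbon and 17 methionine genes 1 of each list was lower in both, beside the same 0.835%. Without replicate 1 of 5-MTF+004 these were 1, 2 and 1, beside 3.36%. The single members were GGH, which trims folate polyglutamates, by -0.75 and -0.80, and DLD by -0.96 and -0.79. The third was MAT2B, a regulator of S-adenosylmethionine synthesis, by -0.82 and -0.79. COL4A1, a basement membrane collagen, differed by -0.91 and -0.87.

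The shared higher genes were fewer. SRRM2, a splicing scaffold, read 12.59, 12.48 and 12.50 in no MTF and 12.38, 12.34 and 12.31 in 5-MTF+003, against 11.50, 11.56 and 11.46 in 5-MTF, differences of 1.02 and 0.84 (adjusted p = 0.00445 and 0.0211, limma). MZT2B, of the microtubule nucleating complex, differed by 1.28 and 0.83, MACROD1, a hydrolase of ADP-ribose, by 1.14 and 0.73 and ATP8B1, a lipid flippase, by 1.21 and 0.82. The other probe set of ATP8B1 ran the other way, at -0.61 and -0.80, and so did that of QNG1, at -0.44 and -0.72. STEEP1, ATP5F1D, MINDY1, TNPO2, QNG1, ZNF593, SRGAP1 and FBXW12 differed by 0.71 to 1.18 in no MTF and by 0.71 to 0.84 in 5-MTF+003.

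Of secreted defence proteins SLPI, a protease inhibitor, differed by 0.68 and 0.89, and the mucin MUC1 by 1.08 and 0.63. CLDN4, a tight junction protein, differed by 0.61 and 0.59. These 3 were called in both extracts.

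**Figure D5:**
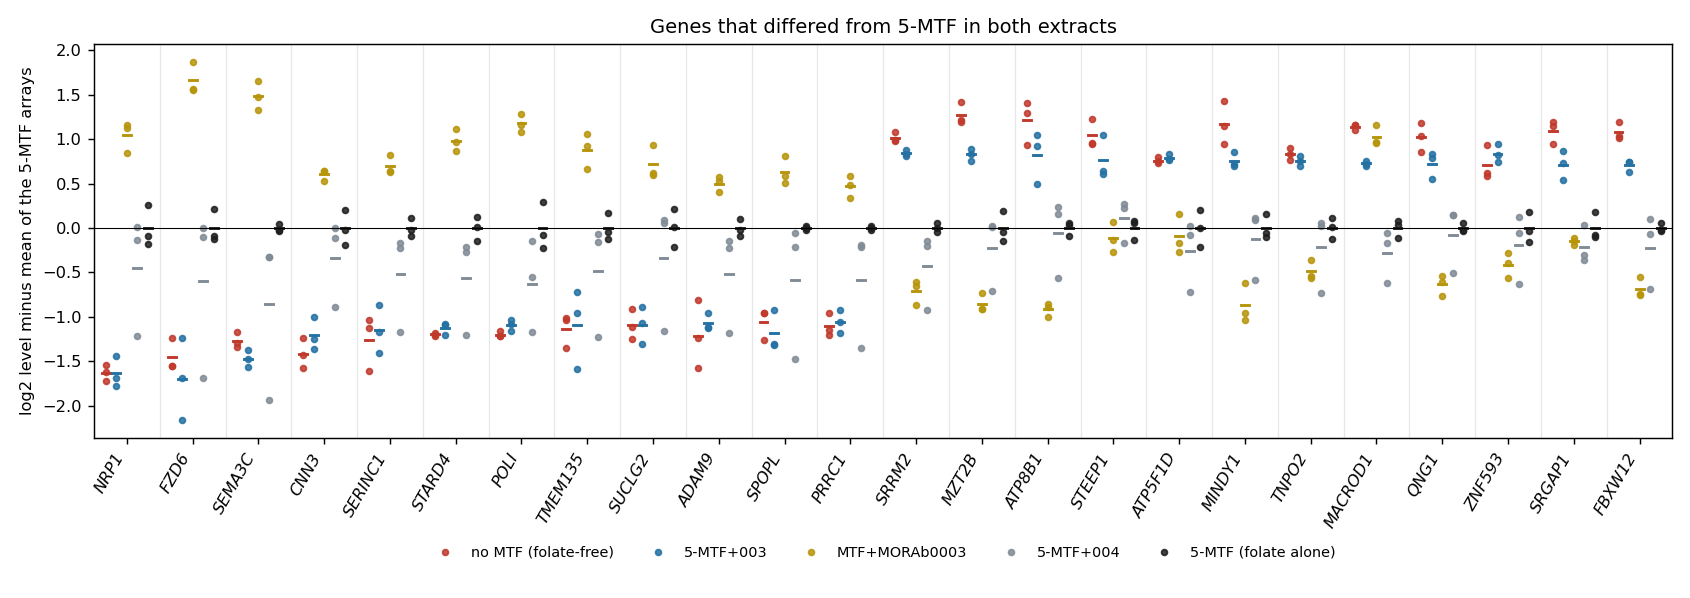
The 12 shared lower and 12 shared higher genes chosen by the smaller of their differences from 5-MTF in the 2 extracts, as log2 level minus the mean of the 5-MTF arrays, for each array (points) and extract (lines) in the order no MTF, 5-MTF+003, MTF+MORAb0003, 5-MTF+004 and 5-MTF. The no MTF and 5-MTF+003 points lie together, below 0 in the first 12 genes and above 0 in the others, and MTF+MORAb0003 lies above 0 in all of the first 12.

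Other probe sets of the shared genes repeated these differences only in part. Of the 29 higher genes 13 had others, and of those 25 probe sets 15 had the same sign in both comparisons and 0 passed 1.5-fold in both. Of the 120 lower genes 60 had others, and of those 107 probe sets 70 had the same sign and 28 passed 1.5-fold in both.

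The RNA gap given above, wider in both extracts than in 5-MTF by 0.85 and 0.78 for actin, can be set beside the shared genes. MTF+MORAb0003, with the narrowest gap, lay above 5-MTF in 106 of the 120 shared lower genes and below it in 24 of the 29 shared higher ones. Replicate 1 of 5-MTF+004, with an actin gap of 3.82 against 3.28 and 3.27 in the other two arrays of that extract, was the lowest of its 3 arrays in all 120 shared lower genes, beside 68.3% of all genes tested. It was also the lowest of its 3 in 25 of the 29 shared higher genes, the opposite of their direction in no MTF and 5-MTF+003. The signals of that array as a whole lay lower at the bright end. Their 75th and 90th percentiles were 7.77 and 9.05, against 7.96 and 9.74 in replicate 2 and 7.96 and 9.75 in replicate 3. The part of this in the order of the 3 arrays was not tested. The part of RNA integrity in the shared differences was not tested.

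A further count avoids the common control by setting 5-MTF+003 against 5-MTF+004, where 498 genes (3.47%) were called. Called the same way there and in no MTF minus 5-MTF were 116 genes, 81 higher and 35 lower, 29.8% of the 389 and 23.3% of the 498. Without replicate 1 of 5-MTF+004 they were 476, 48 higher and 428 lower, 51.7% of 921 and 53.1% of the 897 (6.34%) then called in 5-MTF+003 minus 5-MTF+004, so the majority turned with that array; 73 genes, 38 higher and 35 lower, were in both sets. Leaving out 1 array of no MTF gave 46 to 61, 1 of 5-MTF+003 gave 7 to 36 and 1 of 5-MTF gave 41 to 81. NRP1, CNN3, ANK3, OSTC, PEX2 and BNIP3 led the lower genes and CDK13, MZT2B, NLN, SRRM2, MACROD1 and C19orf33 the higher ones.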

How the data were processed

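The authors deposited log2 signals for each probe set. How they summarised and normalized them is not given in the sources used here. Values ran from 4.00 to 15.5 and were used as deposited. Per the labels' protocols, RNA came from Trizol extraction and was hybridised as biotinylated cRNA. Of 54675 probe sets 41091 named 1 gene symbol in the platform annotation, 1801 several, 11721 none and 62 were controls; 41037 matched a RefSeq gene. The brightest probe set stood for each of 19775 genes, and 14368 with a mean of at least 6.60 in 1 extract or more were tested.

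All 15 arrays were fitted with 5 extract means in limma 3.58.1 (R 4.3.3), with 10 residual degrees of freedom. With 3 aliquots against 3 an exact permutation test of a single value could not go below 0.1. Data were also simulated for no MTF minus 5-MTF+003 over 14368 genes. There limma called 72 of 100 genes set to change 1.8-fold, 94 of 100 set to change 3-fold, and 8 false ones. These rates describe the simulated data only. Whether they hold for the real arrays, where an array of 5-MTF+004 stood apart from its own extract, was not tested. Samples were grouped by title. The number of arrays limits precision.

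Members and gene lists were chosen with earlier results of these data known. Named genes were FOLR1, up to 15 called genes each way between the extracts (with up to 8 more given by value where fewer than 5 were called), genes apart from all other extracts, up to 12 shared each way, up to 6 each way with separate controls, and called or example members of lists. Alternatives covered normalization, filter, probe set choice, fold minimum, array day, the arrays fitted and leaving out each array. Replicate numbers were not used to pair the arrays in the main fit.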

Additional observations from a re-analysis of the deposited data

Results flagged for a closer look

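PCK2 was picked out because its differences from folate alone pointed opposite ways in the folate-free and the 003 extracts, both with adjusted p under 0.05 (limma). Of the 18 called genes 8 had differences of opposite sign from 5-MTF, and PCK2 was the only 1 to pass on both sides. It was above 5-MTF by 0.40 in no MTF and below it in 5-MTF+003 by a difference of -0.43. The difference between these effects, 0.83 (adjusted p = 0.00274, limma), is no MTF minus 5-MTF+003 itself. PCK2 was chosen among the genes called in that comparison, so this p-value is not a separate test. All 3 arrays of no MTF lay above, and all 3 of 5-MTF+003 below, every 5-MTF array. Every array of the control antibody, 5-MTF+004, also lay below every 5-MTF array, so the lower side was not limited to the 003 extract. The difference of 5-MTF+003 minus 5-MTF+004 was -0.21 (adjusted p = 0.170, limma). Without replicate 1 of 5-MTF+004 it was -0.27 (adjusted p = 0.0111, limma).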

How the results depend on the processing

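Counts are given in the order no MTF minus 5-MTF+003, no MTF minus 5-MTF, 5-MTF+003 minus 5-MTF, shared and shared with separate controls. With 15 arrays they were 18, 389, 290, 149 and 116. Quantile normalization gave 61 (50 higher and 11 lower), 643 (258 and 385), 627 (204 and 423), 292 (89 and 203) and 210 (107 and 103). The mean of all probe sets gave 192, 172, 77 and 59 for the last 4. No fold minimum gave 441, 236 and 211 for the last 3, and a 2-fold minimum gave 3, 64, 58, 16 and 6. The first array day alone gave 0 for each, and 184, 1251, 1490, 841 and 724 with replicate 1 of 5-MTF+004 left out, an alternative added after seeing the data. Only the arrays compared gave 116, 915, 1019, 515 and 0, and the 9 arrays of no MTF, 5-MTF+003 and 5-MTF gave 130, 914, 1020 and 514, with no separate controls possible. Without replicate 1 of 5-MTF+004 they were 137, 921, 1032, 518 and 476. Leaving out 1 array gave 1 to 137, 91 to 921, 1 to 1032, 0 to 518 and 7 to 476; with replicate 1 of 5-MTF+004 also left out, added after seeing the data, 103 to 258, 807 to 1175, 811 to 1387, 443 to 646 and 402 to 564. The replicate number as a block gave 15, 327, 224, 104 and 98. Same-numbered arrays of no MTF and 5-MTF+003 correlated at 0.08, 0.32 and 0.51 in their deviations, and differently numbered ones at -0.46 to 0.26. Replicates 2 and 3 of no MTF correlated best with their own number, and replicate 1 with replicate 2. The main fit did not take the numbers as pairs. FOLR1, not called in any fit, changed sign between the extracts to -0.012 on the first array day, -0.035 without no MTF replicate 2, -0.023 without no MTF replicate 3 and -0.025 without 5-MTF+003 replicate 1, with or without replicate 1 of 5-MTF+004 (the highest with 1 array left out was 0.068, without no MTF replicate 1; the mean of all probe sets gave 0.144), and QNG1 in 5-MTF+003 minus 5-MTF to -0.0022 with the mean of all probe sets. The cause was not tested. With 1 culture for each condition, differences between cultures and between conditions cannot be told apart.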

Other observations

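Of 20 NF-kB feedback and cytokine genes tested 3 were called higher in 5-MTF+003 minus 5-MTF, beside 0.432% of all genes tested, and none lower (4 and none without replicate 1 of 5-MTF+004), and none was called in no MTF minus 5-MTF; whether the extracts differ is given by no MTF minus 5-MTF+003, where none was called. NFKBIA, the inhibitor that NF-kB itself induces, differed from 5-MTF by 0.57 in no MTF and by 1.00 in 5-MTF+003, NFKBIE by 0.39 and 0.62 and MAP3K14, a kinase of the pathway, by 0.17 and 0.64.

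Of 5153 probe sets that name no gene or several, 15 were called higher and 0 lower between no MTF and 5-MTF+003. Over all 30125 probe sets tested, these among them, 39 were called higher and 3 lower.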
